A study of Mus musculus with 14 samples.

Results

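The genes described here are 10 components of the transforming growth factor beta (TGF-β) pathway: the ligand Tgfb1, the receptors Tgfbr1, Tgfbr2 and Tgfbr3, the signal-transducing Smads Smad2, Smad3 and Smad4, the inhibitory Smad7, and the nuclear co-repressors Ski and Skil. They were selected by gene name, with earlier results of these data known, and were followed over 5 groups of bulk RNA-seq libraries of mouse CD4+ T cells. Each of the 10 names matched 1 of the 22048 protein-coding rows of the deposited count table. All 10 were among the 12343 genes that passed the filter on low counts and were tested.

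All libraries came from C57BL/6 mice carrying a yellow fluorescent protein (YFP) reporter of interferon-gamma, with cells taken from spleen and peripheral lymph nodes. The naive group (n = 3) was sorted as CD4+ CD44- CD62L+ cells. The other 4 groups came from CD4+ T cells that were enriched, not sorted as naive, and then cultured for 4 days on plates coated with antibodies to CD3 and CD28, at 1 µg/ml each. The medium held IL-2 and IL-12, both at 10 ng/ml, and an antibody to IL4 at 10 µg/ml, a mixture that directs cells towards the interferon-gamma-producing Th1 type. These cultures held 1 µM of either SGC0946, which inhibits the histone H3 lysine methyltransferase DOT1L, or SGC0649, which serves as an inactive control. They were sorted into reporter-negative (YFPneg) and reporter-positive (YFPpos) cells, giving 4 groups named by sort and compound. YFPneg SGC0649 had n = 2, with 1 further library named in the protocol and not analysed here. The YFPpos group of that compound and both SGC0946 groups had n = 3 each. No culture without a compound was analysed here, so a comparison of cultured with naive cells holds activation, time in culture, the starting cells and the compound together, and these cannot be told apart. The design text calls the libraries biological replicates. Nothing else says that they came from separate animals, so the p-values measure the spread between these libraries.

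In the TGF-β pathway, the ligand binds the type II receptor (Tgfbr2), which then phosphorylates the type I receptor (Tgfbr1), while the type III receptor (Tgfbr3, betaglycan) presents ligand without signalling as a kinase. The type I receptor phosphorylates Smad2 and Smad3, which bind Smad4 and act on target genes in the nucleus. Smad7 blocks the receptor and is itself induced by the pathway, and Ski and Skil (SnoN) hold Smad complexes in a repressed state until they are degraded. In CD4+ T cells the pathway is known for restraining activation and Th1 differentiation and for supporting regulatory T cells.

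Promoter windows of 5 of the 10 genes could be matched in RefSeq (build GRCm38.p6), and 3 are shown because their genes had the largest reporter differences of the 10 (Tgfbr2, Smad3) or rose against naive (Tgfb1). Each holds the 250 bases before the transcription start, on the strand of the gene, with the GC box (GGGCGG, or CCGCCC on the other strand) and the Smad box (CAGAC, or GTCTG) in capitals. The Tgfb1 window is chr7:25686752-25687001 (plus strand), the Smad3 window chr9:63757995-63758244 (minus strand) and the Tgfbr2 window chr9:116175364-116175613 (minus strand).
Tgfb1: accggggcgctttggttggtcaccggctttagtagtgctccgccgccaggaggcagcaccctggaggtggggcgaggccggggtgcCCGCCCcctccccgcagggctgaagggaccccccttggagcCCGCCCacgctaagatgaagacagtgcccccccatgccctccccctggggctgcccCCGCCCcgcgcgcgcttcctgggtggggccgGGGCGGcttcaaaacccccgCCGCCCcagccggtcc
Smad3: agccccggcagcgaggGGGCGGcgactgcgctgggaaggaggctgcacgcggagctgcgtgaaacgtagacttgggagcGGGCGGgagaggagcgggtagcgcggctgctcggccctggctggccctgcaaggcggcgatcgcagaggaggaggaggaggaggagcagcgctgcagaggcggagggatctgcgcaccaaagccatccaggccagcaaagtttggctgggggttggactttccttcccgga
Tgfbr2: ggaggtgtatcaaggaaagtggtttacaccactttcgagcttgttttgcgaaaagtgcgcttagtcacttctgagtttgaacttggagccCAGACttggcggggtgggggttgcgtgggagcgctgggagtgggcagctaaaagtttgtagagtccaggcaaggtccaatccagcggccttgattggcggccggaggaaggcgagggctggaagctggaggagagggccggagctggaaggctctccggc
The Tgfb1 window held 5 GC boxes and no Smad box, the Smad3 window 2 GC boxes and no Smad box, and the Tgfbr2 window no GC box and 1 Smad box, 160 bases before the start. Among 32851 mouse promoter windows of this length, 32.7% held a GC box and 42.2% a Smad box, so neither is rare. The AP-1 site TGANTCA, present in 6.75% of all windows, was in none of the 3. The windows are the same in every library and a match is a stretch of letters, not a bound site.

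The libraries held 14486577 to 31614057 counts. Ifng had a mean of 0.0623 counts per 1000000 (CPM, scaled for library composition) in naive cells, 33.8 and 66.8 in the YFPneg groups with SGC0649 and SGC0946, and 737 and 645 in the YFPpos groups, so the sort followed its labels. Summed CD4+ T cell markers (4 of 5 in the table) were at 3160 to 3290 CPM in naive and 1550 to 1930 in cultured libraries, and the summed myeloid, B cell, dendritic, erythroid and stromal markers each stayed at or under 5.9 CPM. Summed CD8 T cell markers were at 16.1 to 19.3 CPM in naive libraries and at 4.76 to 19.7 in cultured ones. Markers of platelets, a cell fragment rich in Tgfb1, summed to 4.85 to 6.58 CPM in naive and 1.73 to 4.18 in cultured libraries, with Ppbp and Gp9 at 0 in every cultured group. In these bulk libraries, fewer cells of a type and less RNA per cell cannot be told apart.

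In the GRCm38 build, Tgfb1 (ENSMUSG00000002603) lies on chromosome 7 at 25687002 to 25705077, Tgfbr1 (ENSMUSG00000007613) on chromosome 4 at 47353222 to 47414931, Tgfbr2 (ENSMUSG00000032440) on chromosome 9 at 116084293 to 116175360, and Tgfbr3 (ENSMUSG00000029287) on chromosome 5 at 107106570 to 107289629. Smad3 (ENSMUSG00000032402) also lies on chromosome 9, at 63646767 to 63757994. Smad2 (ENSMUSG00000024563, 76241580 to 76310963), Smad4 (ENSMUSG00000024515, 73639009 to 73703780) and Smad7 (ENSMUSG00000025880, 75367529 to 75395935) share chromosome 18. Ski (ENSMUSG00000029050) is on chromosome 4 at 155154075 to 155222592 and Skil (ENSMUSG00000027660) on chromosome 3 at 31095058 to 31122577. Tgfbr3 shares 297 exon bases on its own strand with the gene model Gm43422, so reads there cannot be assigned with certainty. No other of the 10 genes had such an overlap.

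**Figure D1:**
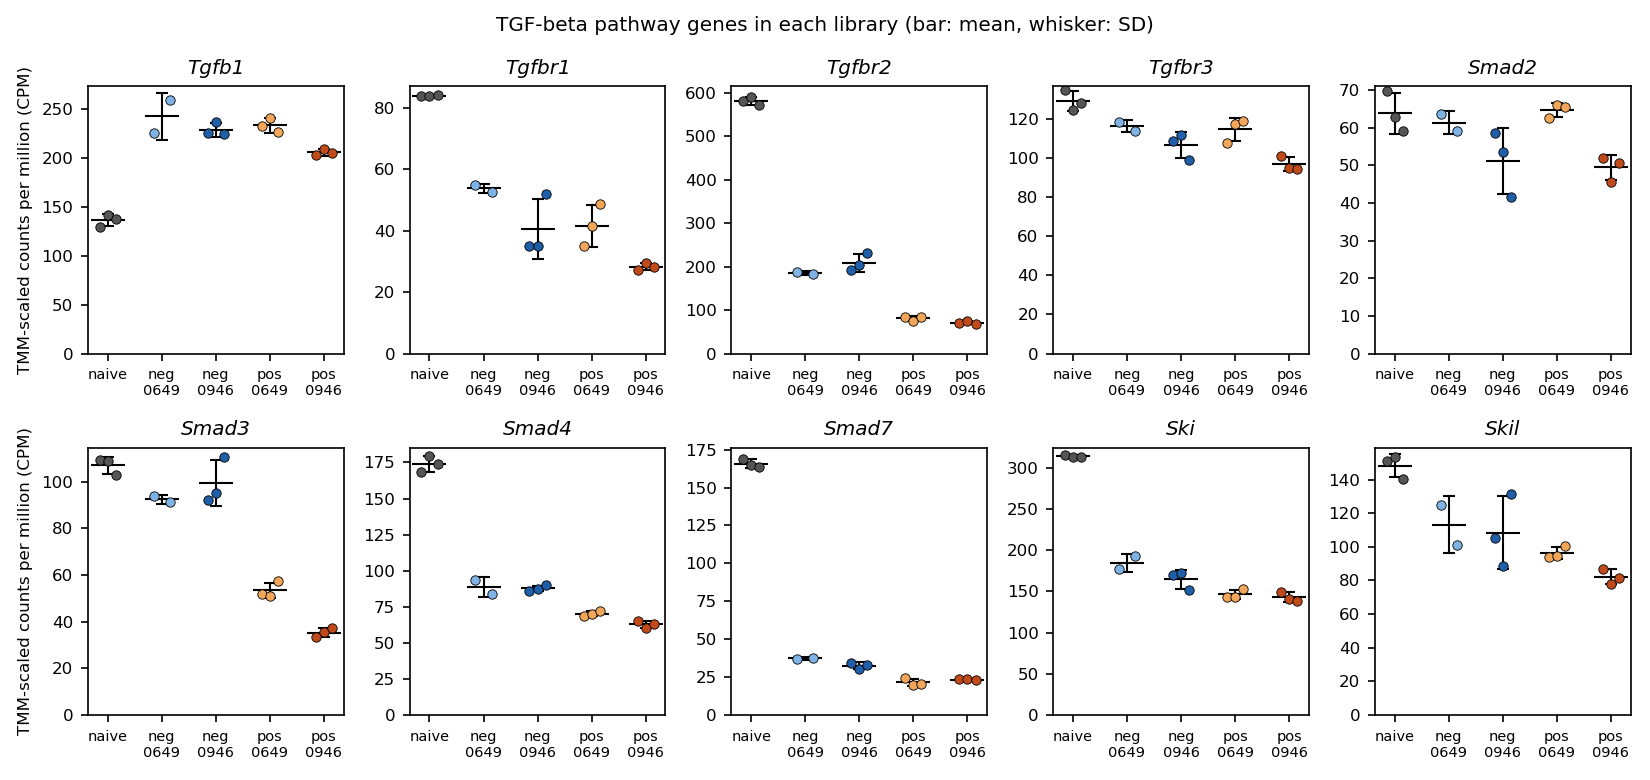
Level of each of the 10 genes in every library, in TMM-scaled CPM on a linear axis from 0, with 1 panel per gene, 1 point per library, a bar at the group mean and whiskers for the SD. Axis labels shorten YFPneg and YFPpos to neg and pos and each compound to its digits. The naive libraries are far above all others for Tgfbr2 and Smad7 and below all others for Tgfb1. Tgfbr2, Smad3, Smad4 and Smad7 each separate the YFPpos from the YFPneg libraries.

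Per kilobase of exon, Tgfbr2 was the most abundant of the 10 in naive cells at 71.1 CPM per kb, ahead of Ski at 56.5, Smad4 at 46.8 and Smad7 at 36.7. Smad2 was the lowest there at 7.26 CPM per kb, below Tgfbr1 at 12.9. In YFPpos SGC0649 cells the order was different: Tgfb1 led at 46.3 CPM per kb, Ski followed at 26.4, and Tgfbr2 stood at 9.88, below Skil at 9.95. Smad7 had become the lowest of the 10 in that group at 4.78 CPM per kb.

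Cells of both sorts from the Th1 cultures had a lower CPM of most of these genes than naive cells and a higher CPM of the ligand. In YFPpos SGC0649 cells, 8 of the 10 genes fell and 1 rose, where 37.3% of all tested genes fell and 42.6% rose (79.8% called in all). The median log2 change over the 10 genes was -1.01, against 0.09 over all tested genes. In YFPneg SGC0649 cells 7 fell and 1 rose (32.6% and 36.4% of all tested genes, 69% in all), with a median of -0.52 against 0.03. With SGC0946, 9 fell and 1 rose in YFPpos cells (38.5% and 42.2% of all, 80.7% in all, median -1.30 against 0.05), and 8 fell and 1 rose in YFPneg cells (34.3% and 38.6% of all, 72.9% in all, median -0.69 against 0.05). Because most of the transcriptome was called in each of these comparisons, the count of called genes alone sets nothing apart. The 4 comparisons share the naive libraries.

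Tgfb1, the ligand, was the gene that rose. Its CPM was 129.6, 141.9 and 137.4 in the naive libraries. It was 225.4 and 259.7 in YFPneg SGC0649 and 232.4, 241.3 and 226.1 in YFPpos SGC0649. With SGC0946 it was 225.6, 237.0 and 224.0 in YFPneg and 202.5, 209.3 and 205.5 in YFPpos. Every cultured library lay above every naive library. The log2 change from naive was 0.78 ± 0.06 (SE) in YFPpos SGC0649 (adjusted p = 1.82e-09) and 0.83 ± 0.07 in YFPneg SGC0649 (adjusted p = 5.04e-09), or 1.71-fold and 1.78-fold. The rise was 1.51-fold in YFPpos SGC0946 and 1.68-fold in YFPneg SGC0946.

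Tgfbr2, the ligand-binding type II receptor, fell most among the receptors. It was at 582.1, 590.2 and 573.6 CPM in naive cells. It was at 188.2 and 182.8 in YFPneg SGC0649, and at 83.06, 75.34 and 84.19 in YFPpos SGC0649. The SGC0946 libraries were at 191.6, 203.9 and 230.5 in YFPneg and at 71.08, 73.98 and 69.12 in YFPpos. No 2 neighbouring groups overlapped, in the order naive, YFPneg SGC0946, YFPneg SGC0649, YFPpos SGC0649 and YFPpos SGC0946. Against naive, the log2 change was -2.85 ± 0.07 in YFPpos SGC0649 (7.20-fold lower, adjusted p = 2.89e-16) and -1.65 ± 0.08 in YFPneg SGC0649 (3.14-fold lower, adjusted p = 3.34e-12). It was -3.03 ± 0.07 in YFPpos SGC0946 and -1.48 ± 0.07 in YFPneg SGC0946 (8.15-fold and 2.79-fold lower). In YFPpos SGC0649 against naive, 15.4% of all tested genes had a larger change in size.

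Tgfbr1, the signalling type I receptor, was tightly grouped in naive cells at 83.79, 83.98 and 84.26 CPM. It was at 54.87 and 52.72 in YFPneg SGC0649, at 34.89, 41.44 and 48.58 in YFPpos SGC0649, at 34.99, 34.88 and 51.95 in YFPneg SGC0946, and at 27.12, 29.44 and 28.08 in YFPpos SGC0946. YFPpos SGC0649 and YFPneg SGC0946 overlapped, YFPneg SGC0649 lay above both and YFPpos SGC0946 below both. All cultured libraries were below all naive libraries. The log2 change from naive was -1.01 ± 0.13 in YFPpos SGC0649 (adjusted p = 1.56e-06) and -0.64 ± 0.15 in YFPneg SGC0649 (adjusted p = 9.01e-04). With SGC0946 it was -1.57 ± 0.13 in YFPpos and -1.05 ± 0.13 in YFPneg (adjusted p = 6.21e-09 and 1.65e-06).

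Tgfbr3, the ligand-presenting co-receptor, was lower than naive in 3 of the 4 cultured groups, by small amounts. Its group means were 129 ± 5.16 CPM (SD) in naive, 116.1 ± 3.15 in YFPneg SGC0649, 114.6 ± 5.92 in YFPpos SGC0649, 106.3 ± 6.65 in YFPneg SGC0946 and 96.72 ± 3.53 in YFPpos SGC0946. The naive libraries were the highest, and each cultured group overlapped the next in this order. The log2 change from naive was -0.17 ± 0.06 in YFPpos SGC0649 (adjusted p = 0.0184, and 0.157 when libraries were scaled by their totals only) and -0.42 in YFPpos SGC0946 (adjusted p = 8.79e-06). It was -0.28 ± 0.06 in YFPneg SGC0946 (adjusted p = 7.45e-04). The call in YFPpos SGC0649 was also lost without naive replicate 1 (adjusted p = 0.0829) or YFPpos SGC0649 replicate 1 (adjusted p = 0.0932). In YFPneg SGC0649 Tgfbr3 missed the threshold at -0.15 (adjusted p = 0.0622). It passed there when libraries were scaled by DESeq2-type size factors (adjusted p = 0.0467) and with the DESeq2 Wald test (adjusted p = 0.0411).

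Smad3, a receptor-activated Smad, fell furthest in the reporter-positive cells. Smad3 was at 109.3, 108.8 and 102.8 CPM in naive cells. It was at 93.73 and 91.06 in YFPneg SGC0649, and at 51.90, 51.10 and 57.19 in YFPpos SGC0649. With SGC0946 it was at 91.94, 95.23 and 110.7 in YFPneg and at 33.43, 35.44 and 37.08 in YFPpos. YFPneg SGC0946 overlapped both naive and YFPneg SGC0649, which lay apart from each other, and both YFPpos groups lay below all of these without overlap. Against naive, Smad3 was lower in YFPpos SGC0649 (log2 change -1.002 ± 0.08, adjusted p = 1.38e-09) and 3.03-fold lower in YFPpos SGC0946 (log2 change -1.60 ± 0.08, adjusted p = 2.88e-12). In YFPneg SGC0649 the log2 change was -0.21 ± 0.08 (adjusted p = 0.0331), a call lost in 7 of 12 alternative analyses (adjusted p from 0.0167 to 0.131 over them). In YFPneg SGC0946 the log2 change was -0.11, with a 95% interval from -0.27 to 0.05. Without YFPneg SGC0946 replicate 3, at 110.7 CPM, it was -0.193 and passed (adjusted p = 0.017). The overlap of YFPneg SGC0946 with naive came from that library alone.

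Smad2, which shares the receptor-activated role, was at 63.78 ± 5.41 CPM in naive, 61.3 ± 3.12 in YFPneg SGC0649 and 64.61 ± 1.89 in YFPpos SGC0649. Its difference between YFPpos SGC0649 and naive was 0.02 on the log2 scale, with a 95% interval from -0.20 to 0.23. With SGC0946 it was at 51.2 ± 8.72 CPM in YFPneg and 49.42 ± 3.32 in YFPpos, and these means were below naive by log2 changes of -0.31 (adjusted p = 0.012) and -0.37 (adjusted p = 0.00326). The YFPneg call was lost without YFPneg SGC0946 replicate 3 (adjusted p = 0.0552) or naive replicate 1 (adjusted p = 0.0676).

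Smad4, the partner common to all activated Smads, fell from 168.5, 179.4 and 173.6 CPM in naive to 93.83 and 83.61 in YFPneg SGC0649 and 68.43, 69.79 and 71.94 in YFPpos SGC0649. It was at 86.11, 87.24 and 89.82 in YFPneg SGC0946 and at 65.08, 60.23 and 63.35 in YFPpos SGC0946. The YFPneg groups of both compounds overlapped, and the YFPpos groups were lower and apart. The log2 change from naive was -1.31 ± 0.06 in YFPpos SGC0649 (adjusted p = 1.22e-12) and -0.97 ± 0.07 in YFPneg SGC0649 (adjusted p = 9e-10). It was -1.47 in YFPpos SGC0946 and -0.99 in YFPneg SGC0946.

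Smad7, the inhibitory Smad, fell in every cultured group. Naive libraries were at 168.9, 164.8 and 163.6 CPM. YFPneg SGC0649 libraries were at 36.68 and 37.87 and YFPpos SGC0649 libraries at 24.34, 20.03 and 20.46. With SGC0946 the values were 34.62, 30.45 and 32.84 in YFPneg and 23.56, 23.76 and 22.81 in YFPpos. All cultured libraries were far below naive, and the YFPpos groups of both compounds overlapped. The log2 change from naive was -2.94 ± 0.08 in YFPpos SGC0649 (7.66-fold lower, adjusted p = 1.48e-15) and -2.15 ± 0.09 in YFPneg SGC0649 (4.45-fold lower, adjusted p = 9.82e-13). With SGC0946 the folds were 7.09 in YFPpos and 5.08 in YFPneg. Of all tested genes, 14.8% changed more than Smad7 between naive and YFPpos SGC0649.

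Both co-repressors fell in every cultured group. Ski was at 315.9, 313.1 and 313.1 CPM in naive, at 176.8 and 192.6 in YFPneg SGC0649 and at 143.5, 143.5 and 153.3 in YFPpos SGC0649. In the SGC0946 cultures it was at 169.5, 173.0 and 151.3 (YFPneg) and at 149.7, 141.4 and 138.6 (YFPpos). The log2 change of Ski from naive was -1.10 ± 0.06 in YFPpos SGC0649 (adjusted p = 1.76e-11) and -0.77 ± 0.07 in YFPneg SGC0649 (adjusted p = 2.49e-08). Skil was at 148.3 ± 6.87 CPM in naive, 113.1 ± 16.9 in YFPneg SGC0649, 96.44 ± 3.70 in YFPpos SGC0649, 108.5 ± 21.5 in YFPneg SGC0946 and 82.14 ± 4.46 in YFPpos SGC0946. Its log2 change was -0.62 ± 0.11 in YFPpos SGC0649 (adjusted p = 4.55e-05) and -0.39 ± 0.12 in YFPneg SGC0649 (adjusted p = 0.00831, and 0.147 without YFPneg SGC0649 replicate 2).

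**Figure D2:**
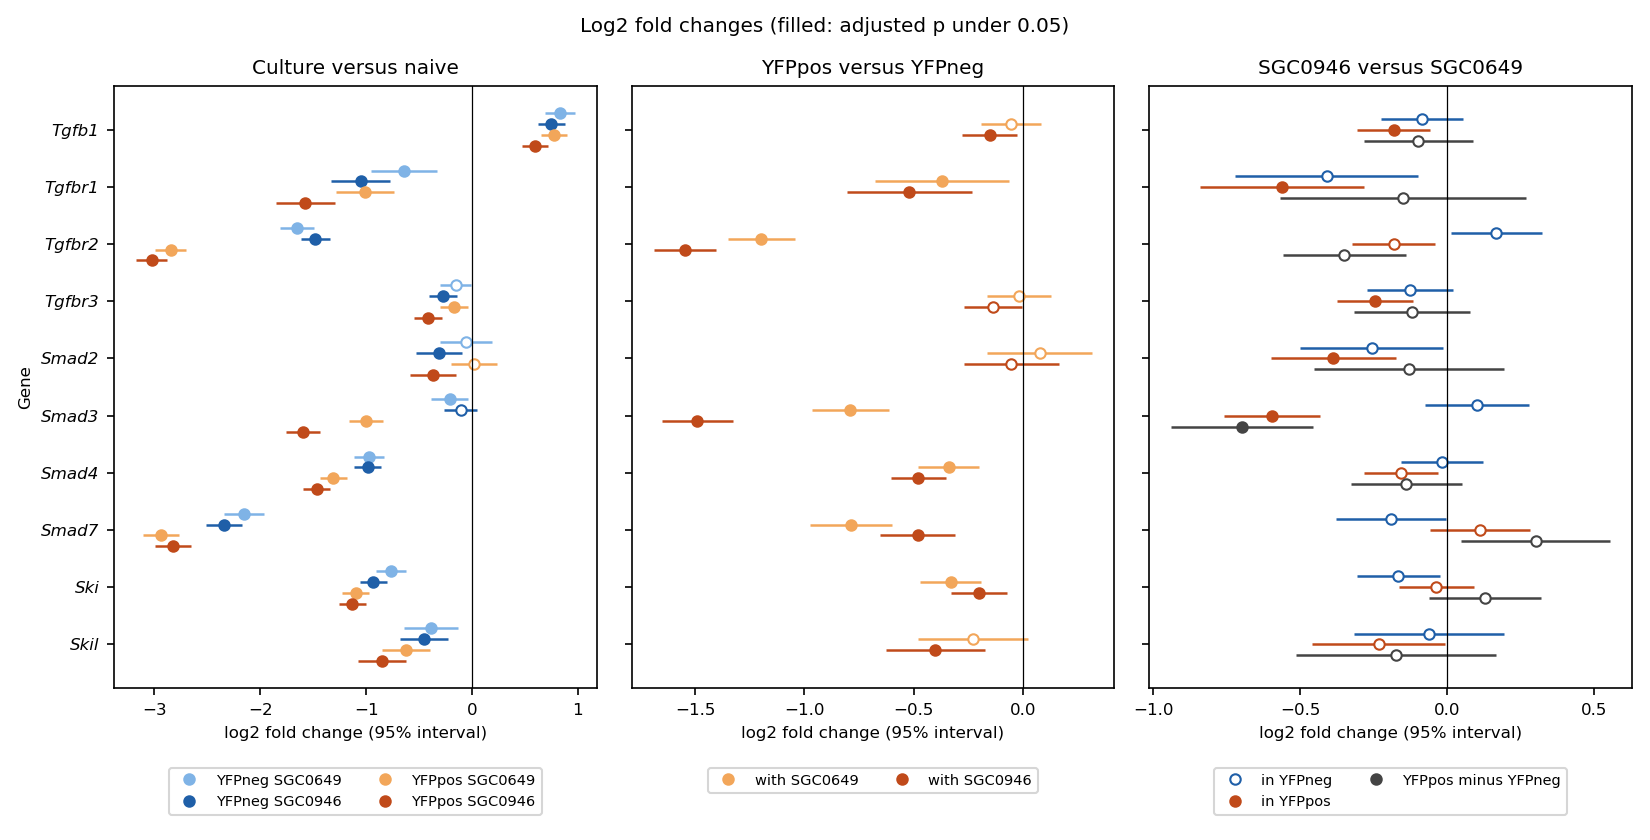
Log2 change of each of the 10 genes against naive (left), between reporter sorts (middle) and between compounds with the interaction term in grey (right), with 95% intervals from the edgeR model and filled points for adjusted p under 0.05. Tgfb1 is right of 0 against naive in all 4 cultured groups, Tgfbr2 and Smad7 reach about -3, and Smad3 and Tgfbr2 are the lowest in both comparisons of YFPpos with YFPneg cells.

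Between reporter-positive and reporter-negative cells cultured with the same compound, Tgfbr2, Smad3, Smad4, Smad7 and Ski were lower in the interferon-gamma producers with either compound. With SGC0649, 6 of the 10 genes fell and none rose, where 21.3% of tested genes fell and 23.9% rose (45.2% in all). The median log2 difference was -0.34, against 0.04 over all tested genes. With SGC0946, 8 fell and none rose, where 27.8% of tested genes fell and 26.9% rose (54.7% in all), with a median of -0.44 against 0.01.

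Tgfbr2 was 2.29-fold lower in YFPpos than in YFPneg cells with SGC0649 (log2 difference -1.20 ± 0.07, adjusted p = 1.44e-09) and 2.92-fold lower with SGC0946 (-1.55 ± 0.07, adjusted p = 1.34e-11). Smad3 was 1.73-fold lower with SGC0649 (-0.79 ± 0.08, adjusted p = 1.05e-06) and 2.81-fold lower with SGC0946 (-1.49 ± 0.08, adjusted p = 1.15e-10). All 6 YFPpos libraries were below all 5 YFPneg libraries for both genes. Larger differences in size were found in 11.4% of all tested genes for Tgfbr2 and 19.7% for Smad3 with SGC0649, and in 8.20% and 8.81% with SGC0946.

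Smad7 differed by -0.79 ± 0.09 with SGC0649 (adjusted p = 2.31e-06) and by -0.48 ± 0.08 with SGC0946 (adjusted p = 8.3e-05). Smad4 differed by -0.34 ± 0.07 (adjusted p = 5e-04) and -0.48 ± 0.06 (adjusted p = 3.9e-06), and Ski by -0.33 ± 0.07 (adjusted p = 6.91e-04) and -0.20 ± 0.06 (adjusted p = 0.00952). Tgfbr1 differed by -0.37 ± 0.15 with SGC0649 (adjusted p = 0.0474) and by -0.52 ± 0.13 with SGC0946 (adjusted p = 0.00356). The SGC0649 call for Tgfbr1 rests on single libraries. It was lost without YFPneg SGC0649 replicate 1 (adjusted p = 0.18) or replicate 2 (adjusted p = 0.112), and without YFPpos SGC0649 replicate 1 (adjusted p = 0.172) or replicate 2 (adjusted p = 0.095).

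Skil was lower in YFPpos cells with SGC0946 (-0.40 ± 0.11, adjusted p = 0.00478) and differed by -0.23 with SGC0649 (adjusted p = 0.129, and 0.0438 with only the libraries of the groups compared). Tgfb1 differed by -0.06 with SGC0649 (95% interval -0.20 to 0.08) and was lower by -0.15 with SGC0946 (adjusted p = 0.036). That Tgfb1 call was lost in 8 of 14 alternatives (adjusted p from 0.0205 to 0.151). Tgfbr3 differed by -0.02 (95% interval -0.17 to 0.13) and -0.14 (adjusted p = 0.0718), and Smad2 by 0.08 (95% interval -0.16 to 0.32) and -0.05 (95% interval -0.27 to 0.16).

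The share of unmapped reads moved with the sort, at 3.14% to 4.62% in the YFPneg libraries and 6.44% to 8.35% in YFPpos SGC0649. Within YFPpos SGC0946, replicates 1, 2 and 3 had 7.58%, 3.61% and 8.12% unmapped reads. Their Tgfbr2 was at 71.08, 73.98 and 69.12 CPM and their Smad3 at 33.43, 35.44 and 37.08. The share of reads mapping to several places also moved with the sort. It was 21.5% to 22.2% in the reporter-negative libraries and 24% to 25.7% in the reporter-positive ones, with YFPpos SGC0946 replicate 2 at 24%. The 2 summed CD8 T cell markers were at 6.5 to 9.51 CPM in YFPneg and 4.76 to 6.41 in YFPpos SGC0649, and at 12.2 to 19.7 and 5.82 to 6.63 with SGC0946. Cd8b1 was lower in YFPpos cells with either compound. With each compound, 1 of the 2 markers passed as lower and 1 did not pass. The median log2 difference of the 2 was -0.093 with SGC0649 and -1.187 with SGC0946. Regulatory T cell markers moved as well. Foxp3, their defining factor, was at a mean of 30.3 CPM in YFPneg and 16.2 in YFPpos SGC0649, and at 14.9 and 2.31 with SGC0946. The 5 summed markers, dominated by Il2ra, were at 1380 to 1830 CPM in the YFPneg and 3110 to 3760 in the YFPpos libraries, and at 124 to 205 in naive ones. The 4 summed NK cell markers were at 0.617 to 3.53 CPM in YFPneg, 3.44 to 7.42 in YFPpos SGC0649 and 11.3 to 12.7 in YFPpos SGC0946 libraries. The part of these in the differences was not tested.

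The compounds were compared at the same dose of 1 µM and the same day 4, in each sorted population, as 2 comparisons with p-values adjusted over all tested genes in each. In YFPpos cells, SGC0946 went with lower levels of 5 of the 10 genes and higher levels of none, where 15.7% of tested genes were lower and 12.1% higher (27.7% in all). The split over all tested genes was 1490 higher and 1934 lower, but 1702 higher and 1388 lower when libraries were scaled by DESeq2-type size factors. The median log2 difference of the 10 genes was -0.21, against -0.04 over all tested genes.

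Smad3 differed most between the compounds in YFPpos cells, with no overlap of the libraries: it was 1.51-fold lower with SGC0946 (log2 difference -0.60 ± 0.08, adjusted p = 4.85e-05). Tgfbr1 was 1.48-fold lower (-0.56 ± 0.13, adjusted p = 0.00507), and its libraries were also apart. Smad2 was lower by -0.39 ± 0.10 (adjusted p = 0.00951, and 0.0569 without YFPpos SGC0946 replicate 2) and Tgfbr3 by -0.25 ± 0.06 (adjusted p = 0.00757). Tgfb1 was lower by -0.18 ± 0.06 (adjusted p = 0.03), a call lost in 9 of 13 alternatives (adjusted p from 0.0163 to 0.125). The unmapped share spanned 6.44% to 8.35% in YFPpos SGC0649 and 3.61% to 8.12% in YFPpos SGC0946, and Foxp3 was at 16.2 and 2.31 CPM. The 5 summed regulatory T cell markers went the other way, at 3110 to 3210 CPM with SGC0649 and 3480 to 3760 with SGC0946. Of these 5 markers, 1 passed as higher and 2 as lower with SGC0946. Their part was not tested.

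For the other 5 genes the compounds did not differ past the threshold in YFPpos cells, which does not show that they act alike. Tgfbr2 differed by -0.18 (95% interval -0.32 to -0.04, adjusted p = 0.0545, and 0.0402 without YFPpos SGC0649 replicate 2). Smad4 differed by -0.16 (95% interval -0.28 to -0.03) and Skil by -0.23 (95% interval -0.46 to -0.01, adjusted p = 0.119, and 0.0238 with only the libraries of the groups compared). Smad7 differed by 0.11 (95% interval -0.06 to 0.28). Ski differed by -0.04 (95% interval -0.16 to 0.09), and its sign turned under some scalings.

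In YFPneg cells none of the 10 genes passed the threshold between the compounds, where 8.63% of all tested genes did (4.99% higher and 3.64% lower). Both DESeq2 and limma-voom also called 0 of the 10. Tgfbr1 had the largest difference at -0.41 (95% interval -0.72 to -0.10, adjusted p = 0.088), and it passed without YFPneg SGC0946 replicate 3, whose value of 51.95 CPM stood above the 34.99 and 34.88 of the other libraries (-0.62, adjusted p = 0.00299). The summed CD8 T cell markers were at 6.5 to 9.51 CPM with SGC0649 and at 12.2 to 19.7 with SGC0946 in these libraries, and their part was not tested. Tgfbr2 differed by 0.17 (95% interval 0.02 to 0.32, adjusted p = 0.15) and Smad3 by 0.10 (95% interval -0.07 to 0.28, adjusted p = 0.459). This comparison rests on 2 libraries with SGC0649, and without YFPneg SGC0649 replicate 2 the count over all genes went from 1065 to 335.

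The difference between the compounds was itself compared between YFPpos and YFPneg cells with an interaction term, which also measures whether the reporter difference depends on the compound. Only Smad3 of the 10 passed, where 1.15% of all tested genes did (0.259% higher and 0.891% lower, or 32 and 110 genes, against 39 higher and 80 lower with DESeq2-type size factors). Its interaction was -0.70 ± 0.11 on the log2 scale (95% interval -0.94 to -0.46, adjusted p = 0.00684), so the gap between YFPpos and YFPneg cells was 1.62-fold wider with SGC0946. In all 19 alternatives the term stayed between -0.75 and -0.61 and passed, with adjusted p from 2.51e-05 to 0.0447. Tgfbr2 (-0.35, 95% interval -0.56 to -0.14, adjusted p = 0.108) and Smad7 (0.30, 95% interval 0.05 to 0.56, adjusted p = 0.276) did not pass.

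**Figure D3:**
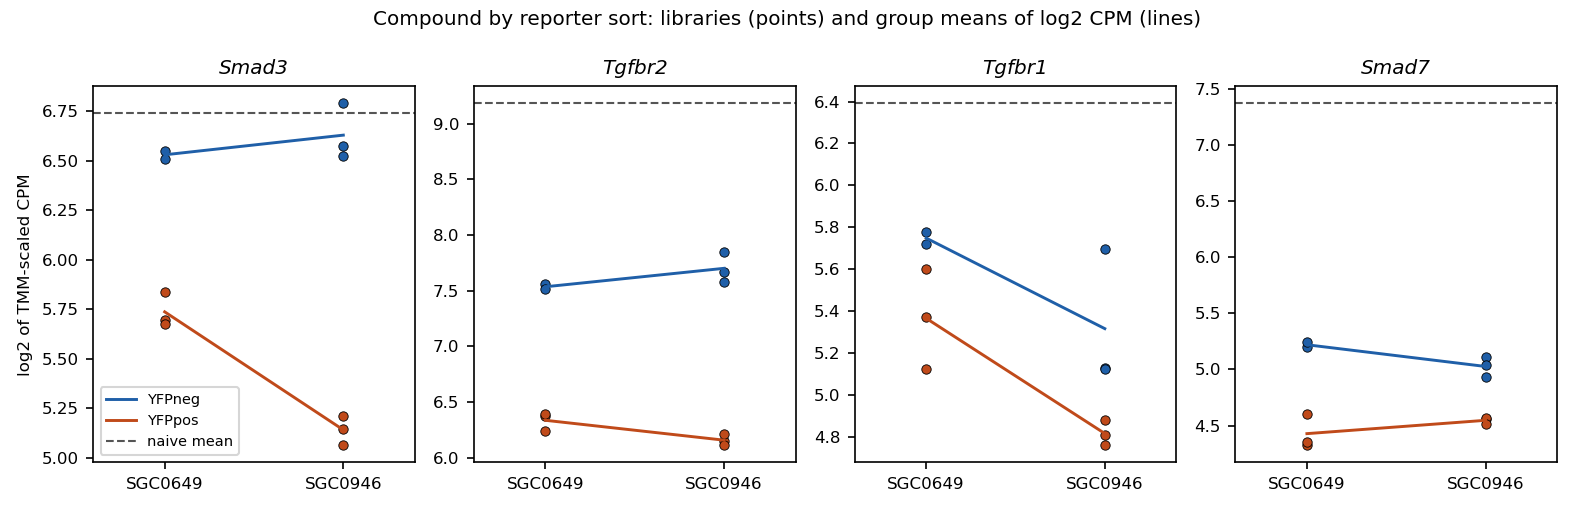
Log2 of TMM-scaled CPM of Smad3, Tgfbr2, Tgfbr1 and Smad7 with each compound, with 1 point per library, lines joining the group means of YFPneg (blue) and YFPpos (red) cells and a dashed line at the naive mean. The Smad3 lines spread apart towards SGC0946, from mean levels of 92.39 (YFPneg) and 53.4 CPM (YFPpos) with SGC0649 to 99.3 and 35.32 CPM with SGC0946.

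Ratios within a library do not depend on its scaling. The ratio of Smad3 to Smad2 counts was 1.57 to 1.74 in naive libraries, 1.48 to 1.54 in YFPneg SGC0649 and 1.57 to 2.66 in YFPneg SGC0946. It was 0.775 to 0.874 in YFPpos SGC0649 and 0.644 to 0.776 in YFPpos SGC0946, so every YFPpos library had a lower ratio than every other library. The ratio of Tgfb1 to Tgfbr2 ran from 0.223 to 0.24 in naive cells. It ran from 0.972 to 1.42 in reporter-negative and from 2.69 to 3.2 in reporter-positive libraries. The ratio of Smad7 to Smad3 was 1.51 to 1.59 in naive libraries and 0.297 to 0.705 in all cultured ones, and within YFPpos cells it was higher with SGC0946 (0.615 to 0.705) than with SGC0649 (0.358 to 0.469).

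Among all 12343 tested genes, those whose pattern over the 14 libraries lay nearest to each of the 10 were found by the root mean square difference of centred log2 CPM. The nearest to Tgfbr2 were 4932438A13Rik (0.076), the receptor gene Cd96 (0.117) and Tnrc6b (0.118). The nearest to Smad3 were Gramd4 (0.113), Fam169b (0.127) and Zfp1 (0.139), and to Smad7 the forkhead gene Foxn3 (0.133), the nucleoside transporter gene Slc28a2 (0.16) and Btbd11 (0.172). Tgfb1 was nearest to Prkcsh (0.069), the calcium channel gene Orai1 (0.077) and the actin crosslinker gene Actn4 (0.081). Tgfbr1 was nearest to Stap1 (0.106), Cyth1 (0.131) and Pknox1 (0.14), and Smad4 to Ino80d (0.054), Synrg (0.056) and Ythdc1 (0.065). The nearest genes were at 0.094 to 0.1 for Smad2, 0.063 to 0.065 for Tgfbr3, 0.073 to 0.075 for Ski and 0.073 to 0.077 for Skil. None of the 10 was among another's nearest 3.

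The rest of the pathway was read from 6 lists. Of 9 tested genes of ligand storage and activation, 7 rose and 1 fell in YFPpos SGC0649 against naive, and 3 rose and 1 fell against YFPneg SGC0649. Over all tested genes, 42.6% rose and 37.3% fell in the first of these comparisons and 23.9% rose and 21.3% fell in the other. Some of the 9 were near 0 in naive cells, such as Ltbp3 (mean 0.03967 CPM) and Thbs1 (0.03996 CPM). Such genes passed the filter on low counts only through cultured libraries and could hardly be called lower than naive. The count of genes that rose against naive is therefore partly set by the filter. Furin, a protease that cleaves the TGF-β precursor, rose from a mean of 53.32 CPM in naive cells to 410.7 in YFPneg SGC0649 and 1027 in YFPpos SGC0649 (log2 change 4.27 in YFPpos). Nrros, which holds latent TGF-β on cells, fell from 140.6 to 39.99 CPM in YFPpos SGC0649 (-1.81). Lrrc32, the latent TGF-β docking receptor of regulatory T cells, was lower with SGC0946 than with SGC0649 in YFPpos cells (54.59 to 19.61 CPM, -1.48, adjusted p = 7e-05) and in YFPneg cells (54.04 to 19.99 CPM, -1.43, adjusted p = 0.00155). Tgfb3, another ligand gene, was low but higher with SGC0946 in YFPpos cells (7.316 to 17.15 CPM, 1.23).

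Of 11 other superfamily receptors tested, 3 rose and 2 fell in YFPpos SGC0649 against naive, where 79.8% of all tested genes were called, and 7 rose and 2 fell in YFPpos SGC0946, where 80.7% were called. This list too held genes near 0 in naive cells that could hardly fall, such as Cd109 (mean 0 CPM) and Acvr2b (0.1393 CPM). Acvr1b, the activin type I receptor, fell from 100 to 21.62 CPM in YFPpos SGC0649 (-2.21). In the same comparison with naive, Bmpr1a rose from 1.956 to 14.83 CPM (2.923) and Acvr1 from 0.3927 to 7.468 CPM (4.215). Both tested Smads outside the 10, Smad1 and Smad5 of the bone morphogenetic protein branch, fell there, Smad5 from 156.6 to 40.74 CPM (-1.94) and Smad1 by -0.68. Smad5 was also lower in YFPpos than YFPneg cells (-0.77 with SGC0649, adjusted p = 3.31e-07, and -1.10 with SGC0946). Of 19 receptor adaptors and ubiquitin-system regulators, 11 fell and 4 rose in YFPpos SGC0649 against naive (37.3% and 42.6% of all tested genes). There Rnf111 (-1.26) and Smurf1 (-1.44), both ubiquitin ligases of the pathway, fell and Fkbp1a, which binds type I receptors, rose from 178 to 550 CPM (1.63).

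Of 12 nuclear partners of Smads, 6 rose and 6 fell in YFPpos SGC0649 against naive, where 42.6% of all tested genes rose and 37.3% fell. Runx1 fell from 129.4 to 28.9 CPM (-2.16) and was lower in YFPpos than in YFPneg cells (-1.41 with SGC0649, adjusted p = 4.09e-08, and -1.75 with SGC0946). The acetyltransferase gene Crebbp fell from 227.8 to 61.57 CPM (-1.89). Between compounds in YFPpos cells 6 of the 12 were lower with SGC0946, Runx1 by -0.72, and 1 was higher, where 15.7% of all tested genes were lower and 12.1% higher. Of 10 genes known as TGF-β targets in T or other cells, 5 rose and 4 fell in YFPpos SGC0649 against naive (42.6% and 37.3% of all tested genes). Among those that rose were Cdkn1a (11.98, from 0.07962 to 344.5 CPM), Myc (1.92) and Id2 (2.03). The list does not separate genes that the pathway raises from genes that it lowers. Between compounds in YFPpos cells, 3 of the 10 fell (15.7% of all tested genes), with Foxp3 lowest (16.24 to 2.309 CPM, -2.81, adjusted p = 1.14e-06), and 1, Id2, rose (12.1% of all tested genes; 155.8 to 324.1 CPM, 1.06).

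In YFPneg cells the compounds differed in 9 of the 63 tested genes of the 6 lists, where 4.99% of all tested genes were higher and 3.64% lower with SGC0946: 1 of 9 storage genes rose and 1 fell, 2 of 11 receptors rose, neither of the 2 Smads and none of the 19 adaptors passed, 1 of 12 nuclear partners fell (Runx1, -0.38, adjusted p = 0.0454, and 0.245 without YFPneg SGC0649 replicate 2), and 2 of 10 target genes rose and 2 fell. Without that library Tgfb3 (adjusted p = 0.207), Acvr2b (0.164), Foxp3 (0.0961), Id2 (0.131) and Myc (0.0995) also lost their calls, and Lrrc32 and Acvrl1 did not. The Acvrl1 call was lost without YFPneg SGC0649 replicate 1 (adjusted p = 0.106). Acvr2b was near the floor, at means of 0.05109 CPM with SGC0649 and 0.7182 CPM with SGC0946, and limma-voom did not call it (adjusted p = 0.14). By edgeR the 6 lists together held 2 genes past the threshold for the interaction: Foxp3 (-1.79, adjusted p = 0.0151, and 0.112 with limma-voom) and the deubiquitinase gene Usp15 (-0.37, adjusted p = 0.0465), whose call was lost in 15 of 19 alternatives (adjusted p from 0.0123 to 0.343). The Foxp3 interaction call was also lost without YFPneg SGC0649 replicate 1 (adjusted p = 0.0745) or replicate 2 (adjusted p = 0.0502).

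**Figure D4:**
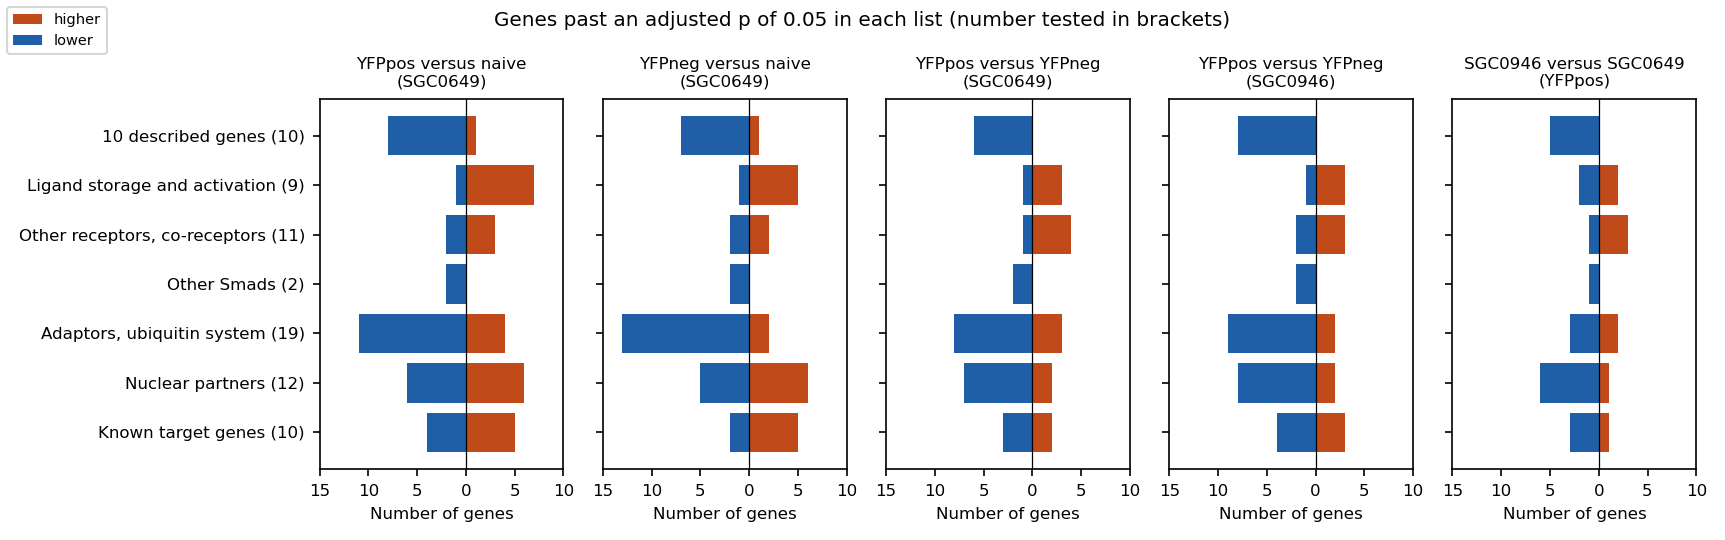
Number of tested genes of the 10 and of 6 pathway lists that were higher (red, right of 0) or lower (blue, left of 0) at an adjusted p under 0.05 in 5 of the comparisons, with the number tested in brackets. The 10 genes and the receptor adaptors lean lower against naive, and the storage and activation genes lean higher. Some of the storage and activation genes were near 0 in naive cells and could hardly be called lower.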

How the data were processed

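RNA was measured by bulk RNA-seq in 14 libraries of 5 groups. The deposited table holds raw read counts per protein-coding gene, made by the authors with featureCounts on build GRCm38, per the submitters' processing notes; its header and name give reverse-strand counting. The notes also name edgeR and limma. Neither aligner nor annotation release was given in the sources used here. The counts were tested with edgeR 4.0.16 (R 4.3.3): filterByExpr by group, TMM scaling, 1 model of all 14 libraries with a coefficient per group, and two-sided quasi-likelihood F-tests of 9 comparisons, with Benjamini-Hochberg adjustment over 12343 genes and a threshold of 0.05. All adjusted p-values are from it unless another tool is named. The common dispersion of 0.00831 corresponds to a biological coefficient of variation of 9.12%. Standard errors and 95% intervals come from the same model. Levels are TMM-scaled counts per 1000000. Exon lengths and positions came from GENCODE mouse release 21, in which 21781 gene IDs matched. The script was tested on simulated counts.

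All 10 genes are named, and from each pathway list only genes among its 3 smallest p-values in a comparison; Ifng and the marker lists served as checks. The genes and lists were chosen with earlier results of these data known. Alternatives were DESeq2 1.42.0, limma-voom 3.58.1, size factors, library totals, no filter, only the groups compared, a replicate block, and leaving out each library. No 2 libraries were identical (0 pairs).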

Additional observations from a re-analysis of the deposited data

Results flagged for a closer look

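Smad3 was the only 1 of the 10 genes whose difference between compounds differed between reporter-positive and reporter-negative cells by a test of that difference: the interaction was -0.698 on the log2 scale (edgeR quasi-likelihood test, adjusted p = 0.00684). The 3 YFPpos SGC0946 libraries were at 33.43 to 37.08 CPM and the 3 YFPpos SGC0649 libraries at 51.10 to 57.19, while the YFPneg libraries were at 91.94 to 110.7 with SGC0946 and at 91.06 and 93.73 with SGC0649.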

How the results depend on the processing

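Of 1220 recomputed log2 values of the 10 genes, 1159 kept their direction and side of the threshold, 35 lost a call, 9 gained one and 17 changed sign, none of them called in the main analysis. Signs turned for Ski between compounds in YFPpos cells (0.008 with size factors, 0.007 with DESeq2 or only the groups compared), Smad2 in YFPneg SGC0649 against naive (0.009 with library totals) and the Tgfbr1 interaction (0.024 with a replicate block by the whole title number). When single libraries were left out, Smad2 ranged from -0.112 to 0.01 in YFPneg SGC0649 and from -0.037 to 0.085 in YFPpos SGC0649 against naive, and from -0.182 to 0.046 between sorts with SGC0946; Tgfb1 and Tgfbr3 ranged from -0.152 to 0.052 and from -0.058 to 0.023 between sorts with SGC0649; Tgfb1, Smad4 and Skil ranged from -0.183 to 0.022, -0.098 to 0.068 and -0.218 to 0.099 between compounds in YFPneg cells; the Tgfbr1 interaction ranged from -0.264 to 0.062.

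Between compounds in YFPneg cells, 1600 genes were called by DESeq2, 199 with only the groups compared and 335 to 1520 without single libraries, against 1065, and 0 to 1 of the 10 genes; the count of 335 was without YFPneg SGC0649 replicate 2. The interaction called 297 genes by DESeq2, 56 with only the groups compared and 61 to 241 without single libraries, against 142: 61 and 76 without YFPneg SGC0649 replicate 1 and 2, 241 without YFPneg SGC0946 replicate 2, 71 without YFPpos SGC0649 replicate 2, and 66, 86 and 78 without YFPpos SGC0946 replicate 1, 2 and 3. Between compounds in YFPpos cells the counts without single libraries were 1886 to 3449 of all genes, against 3424 (1886 without YFPpos SGC0649 replicate 3, 2004 without YFPpos SGC0946 replicate 2), and 3 to 5 of the 10 genes, and 6 with only the groups compared; Tgfb1 and Smad2 were lost without YFPpos SGC0946 replicate 2. The cause of these shifts was not tested.

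A replicate block by the last digit of the title number called 1 of the 10 genes between compounds in YFPneg cells (Tgfbr1, -0.50, adjusted p = 0.0226). A replicate block by the whole number called 4342 genes between sorts with SGC0649, against 5585, and still 6 of the 10. Deviations of same-numbered libraries correlated at 0.036 to 0.147 over 5 pairs, all positive and 2 of them over 0.1. YFPneg SGC0946 replicate 1 was at 0.111 with its same-numbered library, and at -0.066 and -0.036 with the other YFPpos SGC0946 libraries. YFPneg SGC0649 replicate 2 alone went the other way, at 0.036 with its same-numbered library and 0.115 with YFPpos SGC0649 replicate 3. These values do not settle whether the numbers pair the libraries, and the main model did not pair them. Of 1668 recomputed values of pathway-list genes, 62 lost their call and 0 changed sign.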
